A study of Homo sapiens with 6 samples.

Results

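The genes described here encode the machinery that brings proteins into mitochondria. They were chosen by name from the deposited gene-level table: protein-coding symbols that start with TIMM or TOMM, together with SAMM50, MTX1, MTX2, PMPCA, PMPCB, GRPEL1, GRPEL2 and CHCHD4. The rule gave 31 of the 18985 protein-coding symbols of the table, and it used no measured value to choose a gene. The values came from PC-3 cells, an established human prostate cancer line derived from a bone metastasis. All cells carried the Tet-On Advanced transactivator (rtTA2) from a retrovirus selected with G418. The tdTom group also carried a retrovirus with tdTomato driven by the pPGK promoter, whereas in the TTP-tdTom group that virus held the TTP transgene under the Dox-inducible Tight promoter as well. Selection was for drug resistance and tdTomato fluorescence. RNA-Seq was performed on 3 samples of each group after 4 hours in 300 ng/ml doxycycline (Dox), so that the tdTom cells, called control cells below, received Dox too; TTP-tdTom cells are called TTP cells. TTP (tristetraprolin) promotes the decay of mRNAs whose 3′UTRs hold AU-rich elements, to which it binds.

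Nearly all mitochondrial proteins are made in the cytosol and enter through the TOM complex of the outer membrane. From there, β-barrel proteins are inserted by the SAM complex, carrier proteins are escorted by small TIM chaperones to the TIM22 translocase, and proteins with a presequence pass through the TIM23 translocase. A motor built around the mitochondrial Hsp70 pulls presequence proteins into the matrix, where the processing peptidase removes the presequence. CHCHD4 is the oxidoreductase that folds and traps cysteine-rich proteins in the space between the membranes.

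The deposited table gives 1 FPKM value per group and locus, that is, fragments scaled to transcript length and library size. The spread between samples and the number of fragments behind each value are therefore unknown here, no test between groups was run, and "lower" or "higher" below compares these group values alone. Where a pair of FPKM values is given, that of control cells stands first. In bulk RNA, fewer cells with a transcript and less of it per cell cannot be told apart. ZFP36, the gene that encodes TTP, had an FPKM of 5.56 in control cells and 5.54 in TTP cells, so that no rise was seen at that locus and the labels could not be checked there; the table does not show if transgene reads fell there, and TTP cells are those labelled TTP-tdTom. Of the epithelial markers, KRT18 (98.2 and 91.5), KRT8 (20.9 and 19.1) and EPCAM (15.1 and 16.8) were present in both groups, while CDH1 was at 0.119 and 0.390. The prostate luminal gene KLK3 (1.12 and 0.681) and the leukocyte and endothelial genes PTPRC (0.243 and 0.566) and PECAM1 (0.483 and 0.793) were low. Of the fibroblast genes, COL1A1 was at 4.34 and 4.56, whereas COL1A2 was listed at 0 in control cells and at 1.38 in TTP cells. Ratios were formed for the 11997 protein-coding symbols that were above 0 in both groups and reached 1 FPKM in either. Over these the median log2 ratio of TTP-tdTom over tdTom was -0.24, and 79.6% of them were lower with TTP. Ratios of single genes have to be read against this shift.

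All 31 import genes reached an FPKM of at least 1 and had values in both groups. Their median log2 ratio was -0.18, against -0.24 over all protein-coding symbols. With TTP, 27 import genes were lower and 4 higher, but only 12 lay below the median of all genes and 19 above it. A level at least 1.5-fold lower with TTP was counted as past the threshold, and 5 of the 31 genes, or 16.1%, were past it, beside 23.0% of all protein-coding symbols (2759 of 11997). At least 1.5-fold higher were 0 of the 31, against a background of 3.05%. That background holds many genes of low level: the median FPKM in control cells was 39.6 for the members and 9.16 for all symbols. Of all symbols that reached an FPKM of 10 in a group, 0.139% were at least 1.5-fold higher. The absence of higher members is therefore read no further. The 5 genes were MTX2, GRPEL2, TOMM20, TIMM8A and GRPEL1, the last of which shares the import motor with GRPEL2, while the others stand in the SAM complex, the TOM complex and the small TIM chaperones. MTX2 alone was at least 2-fold lower, that is 3.23% of the members beside 8.54% of all protein-coding symbols, and 0 members were 2-fold higher (background 1.83%). Both shares of lower import genes were below the background, and the counts are read no further. Of the 5 genes, only MTX2 and GRPEL2 were still past 1.5-fold when ratios were centred on the protein-coding median (13.6% of all symbols). Centred on GC deciles, explained below, only MTX2 was (7.77%).

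**Figure D1:**
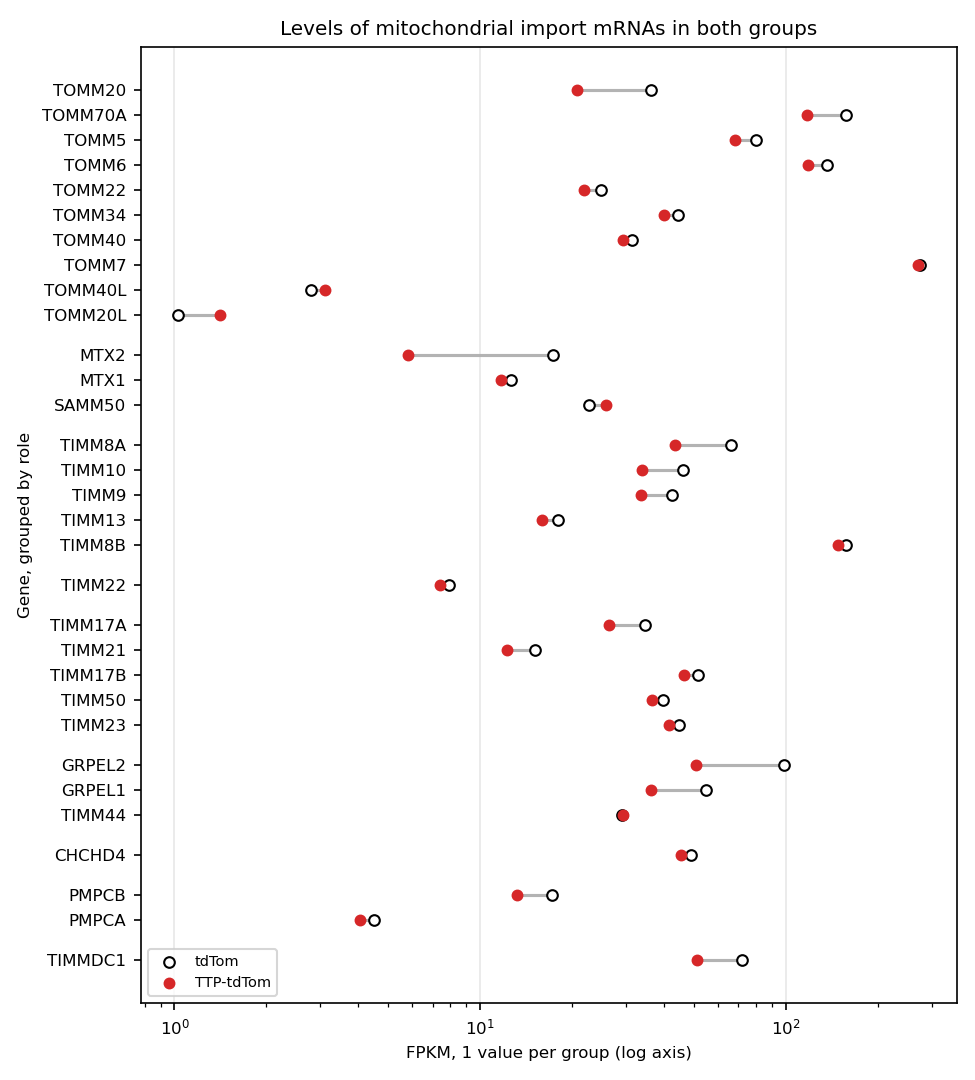
FPKM of the 31 import genes on a log axis, in the tdTom group (open circles) and the TTP-tdTom group (filled circles), with 1 value per group and genes ordered by role. The line between the circles is longest for MTX2 (17.3 and 5.81), while TOMM7 (274.8 and 271.8) and TIMM44 (29.1 and 29.4) nearly coincide.

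The TOM complex holds the receptors and the pore of the outer membrane. TOMM20, the receptor that recognises presequences, lies on chromosome 1 of GRCh37 from 235272658 to 235292256. It had an FPKM of 36.2 in control cells and 20.7 in TTP cells, a 1.75-fold lower level (log2 ratio -0.80). TOMM70A, the receptor for carrier proteins and their chaperones, was at 157.7 and 117.7 (log2 ratio -0.42), and TOMM22, the central receptor that links the others to the pore, was at 24.955 and 21.8 (-0.19). The receptors thus differed from each other, and TOMM20 was the lowest relative to its control level.

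TOMM40, the β-barrel channel of the pore, had an FPKM of 31.5 and 29.4 (log2 ratio -0.10), closer to its control level than the receptors. Centred on GC deciles it lay at -0.0093, beside -0.0018 for TOMM70A, 0.059 for TOMM22 and -0.38 for TOMM20. The small subunits that surround the pore were among the most abundant mRNAs of the 31: TOMM7 was at 274.8 and 271.8 (-0.02), TOMM6 at 136.6 and 118.5 (-0.21) and TOMM5 at 79.8 and 68.5 (-0.22). The row of TOMM6 also holds PRICKLE4, so that its value covers both genes. TOMM34, a cytosolic co-chaperone rather than a subunit of the complex, was at 44.4 and 40.0 (-0.15). The relatives TOMM40L (2.80 and 3.12, log2 ratio 0.15) and TOMM20L (1.03 and 1.41, log2 ratio 0.46) were the least abundant of the 31 genes and were higher with TTP in the rows used. A second row of TOMM20L, at 1.16 and 1.04 (log2 ratio -0.15), ran the other way, and with both rows summed the ratio of TOMM20L was 0.17. Of the 10 TOMM genes, 1 was past the 1.5-fold threshold (10.0%, beside 23.0% of all protein-coding symbols). Their FPKM summed to 789.8 in control cells and 693.1 in TTP cells, which left 87.8%, beside 83.0% for the sum over all protein-coding symbols.

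The subunits of the SAM complex had the widest range of ratios among the roles, from -1.58 to 0.19. MTX2 (metaxin 2), on chromosome 2 of GRCh37 from 177133871 to 177202764, had an FPKM of 17.3 in control cells and 5.81 in TTP cells. This 2.98-fold lower level (log2 ratio -1.58) was the lowest ratio of the 31 genes, and only 1.36% of all protein-coding symbols had a ratio as low or lower. Its partner MTX1 (metaxin 1) was at 12.6 and 11.7 (log2 ratio -0.11), and SAMM50, the β-barrel at the core of the complex, was at 22.7 and 25.9 (0.19). In the tdTom group MTX2 was the more abundant metaxin of this pair, with 57.9% of their summed FPKM, whereas in the TTP-tdTom group it made up 33.2%.

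The small TIM chaperones form hexamers in the intermembrane space, of TIMM9 with TIMM10 and of TIMM8A with TIMM13. TIMM8A, whose mutation underlies Mohr-Tranebjaerg syndrome, lies on chromosome X of GRCh37 from 100596459 to 100603957. Its FPKM was 66.1 in control cells and 43.3 in TTP cells (1.53-fold lower, log2 ratio -0.61). TIMM10 was at 46.1 and 33.8 (-0.45), TIMM9 at 42.5 and 33.6 (-0.34), TIMM13 at 18.0 and 15.9 (-0.18) and TIMM8B at 157.6 and 147.7 (-0.09). All 5 were lower with TTP, 3 of them below the median ratio of all genes, and TIMM8A was the only 1 of these past the 1.5-fold threshold. Over all protein-coding symbols 79.6% were lower and 23.0% past that threshold, so that these counts lay near the background. TIMM22, the channel of the carrier translocase, had an FPKM of 7.90 and 7.39 (-0.10).

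The genes of the TIM23 translocase lay between log2 ratios of -0.38 and -0.10. TIMM23, its central channel component, was at 44.7 and 41.6 (log2 ratio -0.10), and TIMM50, the receptor that takes over presequences from the TOM complex, at 39.6 and 36.4 (-0.12). TIMM17B was at 51.6 and 46.6 (-0.15), TIMM17A at 34.6 and 26.5 (-0.38) and TIMM21, which couples the translocase to the respiratory chain, at 15.1 and 12.2 (-0.31). Of the 5 genes 0 were past the 1.5-fold threshold, beside 23.0% of all protein-coding symbols, and a count over 5 genes is read no further. TIMM23 has a near-identical copy, TIMM23B, which is not a symbol of the table, and how fragments shared by the copies were counted is not known here.

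At the import motor the nucleotide exchange factors and the membrane anchor went apart. GRPEL2, on chromosome 5 of GRCh37 from 148722468 to 148734146, had an FPKM of 98.8 in control cells and 50.9 in TTP cells (1.94-fold lower, log2 ratio -0.95). GRPEL1 was at 54.9 and 36.3 (1.51-fold lower, -0.60). Both are GrpE-like factors that release ADP from the mitochondrial Hsp70. TIMM44, which tethers that Hsp70 to the translocase, was at 29.1 and 29.4 (0.01). GRPEL2, GRPEL1 and TIMM44 together kept 63.8% of their summed FPKM, from 182.8 to 116.6, beside 83.0% over all protein-coding symbols. This was the lowest share of the member roles that hold more than 1 gene. GRPEL2 alone gave 98.8 of the sum in control cells. Other genes of the motor, such as HSPA9 (71.2 and 57.1) and DNAJC19 (16.0 and 9.10), were no members and are not in the sum. Centred on GC deciles, GRPEL2 lay at -0.39, GRPEL1 at -0.34 and TIMM44 at 0.11, all within the 1.5-fold range.

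The remaining members were past neither fold. PMPCB, the catalytic subunit of the processing peptidase, was at 17.2 and 13.2 (log2 ratio -0.38), and PMPCA, which binds the substrate, at 4.51 and 4.06 (-0.15). CHCHD4 was at 48.8 and 45.5 (-0.10). TIMMDC1 carries a TIMM name but is known as an assembly factor of respiratory complex I. Its FPKM was 72.1 and 51.2 (1.41-fold lower, -0.50), just short of the threshold, while GRPEL1 and TIMM8A lay just past it.

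**Figure D2:**
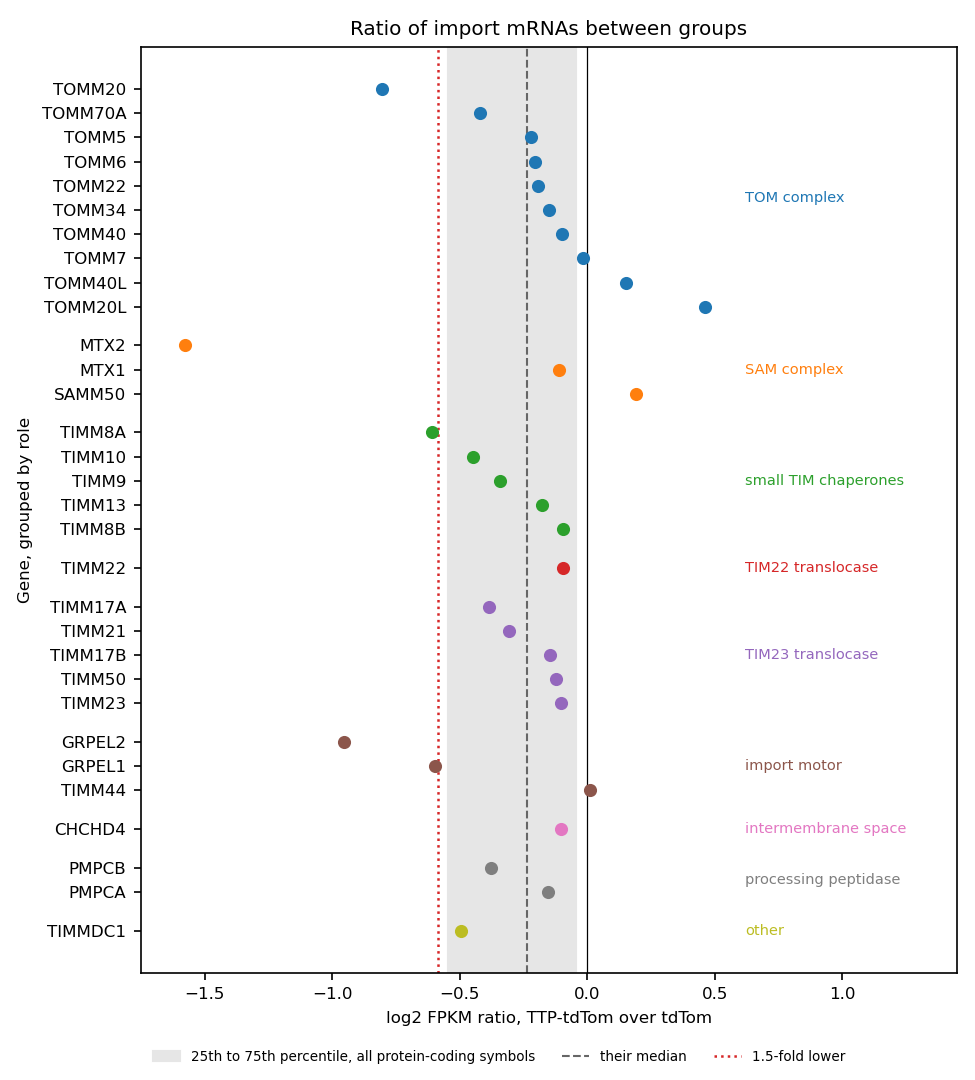
Log2 FPKM ratio of TTP-tdTom over tdTom for each import gene, coloured by role, with 1 value per gene. The grey band is the range from the 25th to the 75th percentile of all protein-coding symbols (-0.55 to -0.045), the dashed line their median (-0.24) and the dotted line a 1.5-fold lower level; MTX2, GRPEL2, TOMM20, TIMM8A and GRPEL1 lie left of the dotted line, and TOMM20L (0.46) is farthest to the right.

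Several import proteins exist as related pairs, and within these pairs the ratios were unequal. TIMM8A held 29.5% of the summed FPKM of TIMM8A and TIMM8B in control cells and 22.7% in TTP cells. For GRPEL2 in the sum of GRPEL2 and GRPEL1 the share was 64.3% and 58.4%, and for TIMM17A in the sum of TIMM17A and TIMM17B it was 40.2% and 36.2%. TOMM20 made up 97.2% and 93.6% of the sum of TOMM20 and TOMM20L. The difference in log2 ratio between the genes of a pair was -1.47 for MTX2 against MTX1, -0.52 for TIMM8A against TIMM8B, -0.36 for GRPEL2 against GRPEL1 and -0.24 for TIMM17A against TIMM17B. A common scaling of a library cancels in these differences, whereas a centring of each gene on its GC decile (the median ratio over the tenth of protein-coding symbols, ranked by the GC content of the transcript, in which the gene falls), chosen after seeing the data, does not. It left -1.14 for MTX2 against MTX1 and -0.52 for TIMM8A against TIMM8B, but only -0.049 for GRPEL2 against GRPEL1, and it turned the difference of TIMM17A against TIMM17B to 0.23. Without replicate values none of them could be tested.

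**Figure D3:**
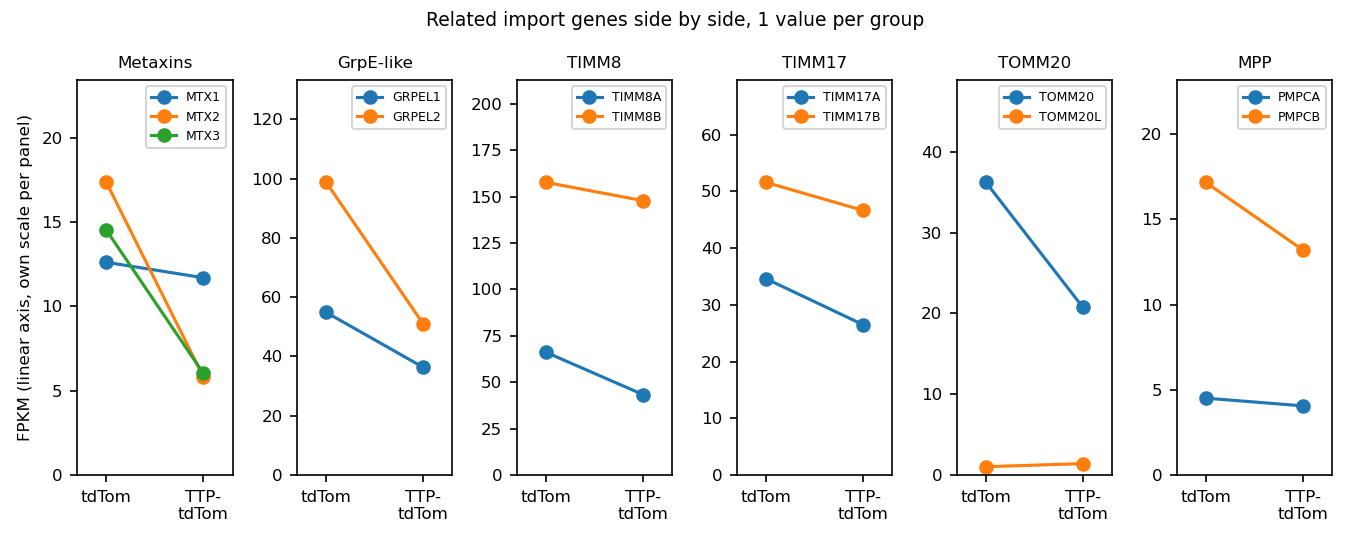
FPKM of related import genes in the tdTom and TTP-tdTom groups, 1 panel per family on its own linear axis from 0, with lines joining the 2 values of each gene. MTX2 (17.3 to 5.81) and MTX3 (14.5 to 6.02) cross below MTX1 (12.6 to 11.7), and GRPEL2 stays above GRPEL1 in both groups.

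Other genes of protein import were taken from a fixed list that was drawn up by role. All 24 genes of that list found in the table had a ratio, with a median log2 ratio of -0.25; 5 of them, or 20.8%, were at least 1.5-fold lower with TTP, beside the background of 23.0%, and 0 were at least 1.5-fold higher. AGK, a lipid kinase that is also a subunit of the TIM22 translocase, was at 15.2 in control cells and 6.22 in TTP cells (2.44-fold lower). The other subunits of that translocase stood closer to their control level: FXC1, the older symbol of TIMM10B, was at 18.98 and 15.9 and C19orf52, the older symbol of TIMM29, at 18.4 and 19.4. MTX3, a further metaxin, was at 14.5 and 6.02 (2.41-fold lower), while MTX1 stayed within the 1.5-fold range. Centred on its GC decile, MTX3 was within that range too, at a log2 ratio of -0.52. DNAJC19, the J-domain partner of the motor's Hsp70, was at 16.0 and 9.10 (1.76-fold lower), whereas HSPA9, that Hsp70 itself, was at 71.2 and 57.1 (1.25-fold lower). IMMP1L (5.34 and 2.89, 1.85-fold lower) and IMMP2L (7.03 and 3.63, 1.94-fold lower), the subunits of the inner membrane peptidase, complete the 5. The call of IMMP2L rests on the row used, since 2 further rows of it stood at 0.569 and 6.34 and at 1.84 and 0.634, and with the rows summed its log2 ratio turned to 0.17. Centred on GC deciles, AGK and IMMP2L, again in the row used, were the 2 of the 5 still past the threshold. The least changed gene of the list was MTCH1, at 28.97 and 27.9 (1.04-fold lower).

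The 3′UTRs of the import genes were searched for TATTTAT, the DNA spelling of a heptamer typical of AU-rich elements, and for the shorter ATTTA that lies within it. Only the mRNA strand was searched and overlapping copies were counted. The transcripts came from GENCODE release 29, matched through the RefSeq name of each row, and all 31 members had a 3′UTR there. The heptamer was present in 6 of the 31, or 19.4%, beside 34.4% of 11853 protein-coding symbols, and the 3′UTRs of the members were shorter, with a median of 810 bases against 1193. GRPEL2 held 3 copies in 3301 bases and TOMM20 held 2 in 2728 bases, while PMPCB, TIMM17A, TIMM8B and TOMM70A held 1 each. Among 3′UTRs within 20% of the length of that of GRPEL2 58.9% hold the heptamer, and within 20% of that of TOMM20 54.2% do. Within 20% of the 478 bases of TIMM8B it is 15.2%.

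The sites of GRPEL2 and TOMM20 are shown because these genes had the lowest ratios among the members with the heptamer, and that of TIMM8B because its level was close to that of the control group. Capitals mark the heptamer, and positions are of the 30 bases shown, on GRCh38.
GRPEL2 chr5:149351326-149351355, plus strand: tatgtttctttTATTTATtaaactaggttt
GRPEL2 chr5:149352248-149352277, plus strand: tcctctggctcTATTTATgttactttttgc
GRPEL2 chr5:149353997-149354026, plus strand: aggtgctcagaTATTTATttttattttttt
TOMM20 chr1:235111886-235111915, minus strand: tttgtctatttTATTTATttttcccagtga
TOMM20 chr1:235111443-235111472, minus strand: tgtgttctgggTATTTATctccttgtattt
TIMM8B chr11:112085116-112085145, minus strand: agagtgaaattTATTTATttggaattcaga

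MTX2, with the lowest ratio of all, held 0 copies of the heptamer in a 3′UTR of 361 bases, and among 3′UTRs within 20% of that length 11.9% hold it. It held 3 copies of ATTTA, and 44.0% of those 3′UTRs hold ATTTA in any number. The 3 copies of MTX2 are shown with ATTTA in capitals, again on GRCh38.
MTX2 chr2:176337835-176337864, plus strand: taattctgaattATTTAatctgatatgttg
MTX2 chr2:176337896-176337925, plus strand: aaacatgcatgcATTTAaaaataaagctta
MTX2 chr2:176337934-176337963, plus strand: tatggatgttacATTTActttcttttgatt

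TIMM8A and GRPEL1 also held 0 heptamers, with 3 and 6 copies of ATTTA. Over the members, ATTTA was present in 24 of 31, or 77.4%, beside 72.1% of all protein-coding symbols. All 5 members past the 1.5-fold threshold held it, as did 19 of the other 26, but the 3′UTRs of the 5 were longer, with a median of 1956 bases against 539. Of 3′UTRs within 20% of the same length, 97.1% hold ATTTA for GRPEL2, 96.2% for TOMM20, 91.1% for GRPEL1 and 72.5% for TIMM8A. The 6 members with the heptamer had a median log2 ratio of -0.40, and the 25 without it one of -0.15. Over all protein-coding symbols the medians were -0.45 for the 4082 with the heptamer and -0.17 for the 7771 without. Of those with it 39.8% were at least 1.5-fold lower, and of those without it 14.2%. Centred on GC deciles, an alternative chosen after seeing the data, the order within the members turned, with medians of 0.078 for the 6 with the heptamer and -0.0057 for the 25 without. Over all protein-coding symbols the medians were then -0.080 and 0.027, and 13.1% and 4.95% were at least 1.5-fold lower. The GC content was taken over the whole transcript with its 3′UTR, and the heptamer holds only A and T. Centring can therefore also remove differences that go with the heptamer, and heptamer and GC content cannot be told apart here. A match is a run of letters and not evidence that TTP binds there.

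GC content of the transcript moved with the ratio. Across the 31 members Spearman's rho between GC content and log2 ratio was 0.595, and across all 11853 protein-coding symbols it was 0.476. These are descriptions across genes of the same libraries, which share depth and base composition, and the part of GC content in the ratios was not tested. The 5 members past the threshold had a GC content from 38.9% to 47.0%, whereas the others ranged from 39.6% to 63.6%. In the GC decile of MTX2 (42.4%) the median log2 ratio over all protein-coding symbols was -0.42, and MTX2 lay 1.16 below it on the log2 scale. GRPEL2 (38.9%) had a decile median of -0.56 and TOMM20 (41.4%) of -0.42, so that these genes lay 0.39 and 0.38 below. TOMM7, with a GC content of 44.5%, lay above its decile median of -0.34, at -0.02. The median log2 ratio of the 31 members relative to their GC deciles was -0.0018. Relative to those deciles MTX2 alone was at least 1.5-fold lower, beside 7.77% of all protein-coding symbols, and TOMM20L, in the row used, at least 1.5-fold higher, beside 5.98%. The rho with the level in the tdTom group was -0.301 over the members and -0.256 over all protein-coding symbols. That level is the denominator of the ratio, so noise in it alone makes this rho more negative, and it is read no further.

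**Figure D4:**
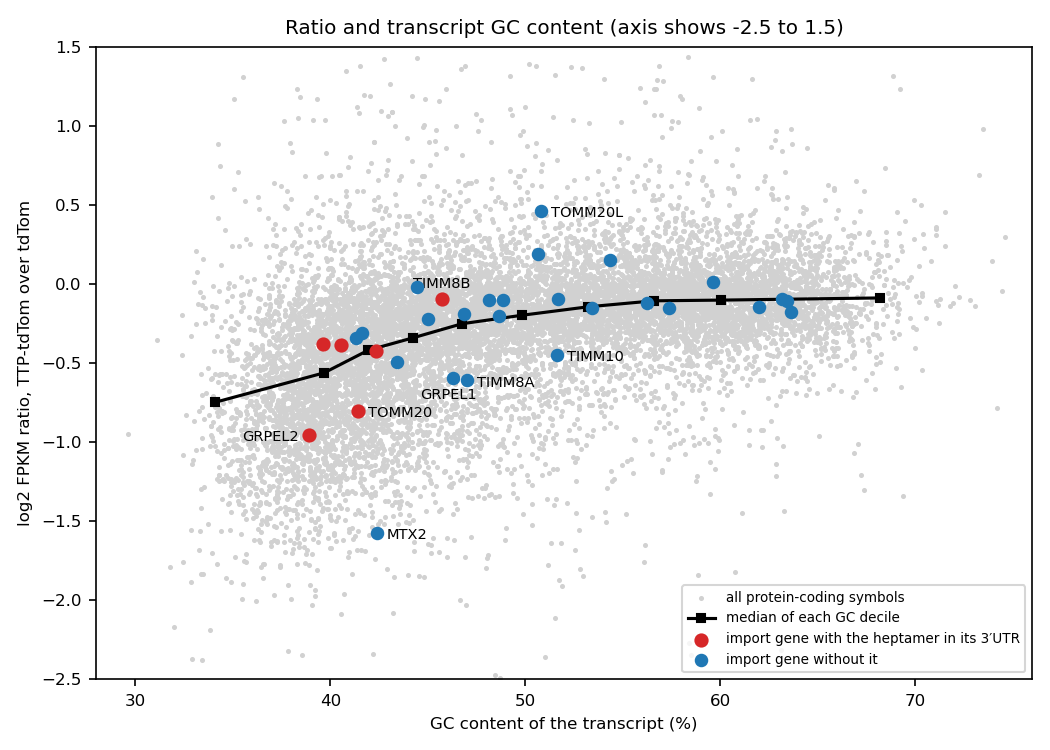
Log2 FPKM ratio of TTP-tdTom over tdTom against the GC content of the transcript in percent, with all protein-coding symbols in grey, the median of each GC decile as black squares at the middle of its range, and the import genes in red (heptamer in the 3′UTR) or blue (no heptamer). The decile medians run from -0.75 to -0.09, and of the import genes MTX2 lies farthest below them; 161 symbols fall outside the plotted range of the ratio.

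Of the 31 members, 13 lie in an assembled locus that holds another named gene. Rows of genes that are no members and reach an FPKM of 1 gave 17 pairings of a neighbour with a member, over 10 members. In 14 of them the log2 ratios differed by less than 1.5-fold, with a median difference of 0.30 in size over the 17. The same share was not formed for pairs of unrelated genes. Over all protein-coding symbols the 25th and 75th percentiles of the ratio were themselves close, at -0.55 and -0.045. Some genes, such as GRPEL1 and KIAA0586, also enter more than 1 pairing, so the count is read no further. The 3 pairings past 1.5-fold were DLAT with TIMM8B, KIAA0586 with TOMM20L and TBC1D14 with GRPEL1. DLAT, a subunit of pyruvate dehydrogenase, was at 15.6 in control cells and 6.17 in TTP cells (2.52-fold lower) while TIMM8B was 1.07-fold lower. KIAA0586, a centrosomal gene, was at 27.5 and 16.2 (1.70-fold lower), and TBC1D14 at 8.33 and 8.57 (log2 ratio 0.04). The other rows in the locus of GRPEL1 (-0.60) were lower with TTP: LOC100129931 with ratios of -0.54 and -0.16 in its 2 rows, TADA2B with -0.30 and CCDC96 with -0.22. SNORA14B, a small nucleolar RNA in the locus of TOMM20 (-0.80), was at 12.5 and 7.70 (-0.70). For 11 members GENCODE lists pseudogenes named after the gene, among them TOMM22 with 6, TOMM20 and CHCHD4 with 4 each, and GRPEL2 and TIMM9 with 3 each. How fragments were divided between these genes and their copies is not known here, so their FPKM values are uncertain to that extent.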

How the data were processed

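RNA-Seq libraries of 6 samples were prepared with the NuGen Ovation Encore Complete kit and sequenced as 75-base paired ends. According to the methods and the submitters' processing notes, reads were aligned with TopHat2 2.0.13 to Hs37D5 (GRCh37 with decoy sequence), and Cufflinks 2.2.1 was used to build transcripts and to compare the groups. The FPKM values deposited by the authors are 1 per group and locus at 406165 loci; per-sample depth cannot be read from them. The table's other columns hold the authors' own fold changes, test statistics, p and q, which were not used. Loci were read as protein-coding where they carry an NM_ name. A symbol with several rows was represented by the row with the most RefSeq names, then the highest FPKM. This held for 3 members, each with its rows at the same assembled locus. For GRPEL2 and TOMM20L the rows had equally many RefSeq names, so FPKM decided. Ratios are log2 of TTP-tdTom over tdTom, without a pseudocount, for symbols above 0 in both groups that reach 1 FPKM in either. A fold of 1.5, or 2 as an alternative, counted as past the threshold, as no test fits 1 value per group; the replicate fits named in advance were not run. The members and lists were chosen with earlier results of these data known. The design written then fixed the named genes other than HSPA9, FXC1, C19orf52 and the neighbours of members. It named every member by role, ZFP36, markers of cell types, and the other import genes past 1.5-fold plus the least changed. A marker of this rule is not reported here. Sequences are from GENCODE release 29 (GRCh38), with the longest 3′UTR among the matched transcripts. Of the symbols past the filter, 98.8% had a 3′UTR. Alternatives were pseudocounts, filters, summed rows and scalings. The functions for ratios and fold calls were tested on simulated data, whereas the steps for sequences, GC content and row choice were not. Python 3.11.15, numpy 2.4.6, pandas 2.3.3, scipy 1.17.1 and matplotlib 3.10.9 were used.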

Additional observations from a re-analysis of the deposited data

Results flagged for a closer look

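GRPEL2 has a second row in the table, at the same assembled locus and under the same RefSeq name, which the comparison did not use. Its FPKM was 0.936 in control (tdTom) cells and 1.58 in TTP-tdTom cells, higher with TTP, whereas the main row was lower. With both rows summed the log2 ratio of GRPEL2 was -0.92, against -0.95 from the main row. What the second row measures was not tested.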

How the results depend on the processing

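No paired analysis was possible because the table holds 1 value per group; leaving out replicates in turn was not run for the same reason. Other scalings moved the median of the members most, since the median of all genes lay at -0.24. The counts of lower genes fell furthest when centred on GC deciles or at 2-fold. The median log2 ratio of the members, -0.18, was 0.062 when centred on the protein-coding median and 0.052 with the same FPKM sum over protein-coding symbols, which reversed it. The same sum over all loci added 3.09 to every ratio and gave 2.92 for the members and 2.86 for all protein-coding symbols; loci without a symbol carry 99.8% (tdTom) and 98.4% (TTP-tdTom) of that sum. With a pseudocount of 1 the median of the members was -0.17, beside -0.20 over all protein-coding symbols. At an FPKM of at least 10 it was -0.21, beside -0.29 over all. In settings chosen after seeing the data it was -0.0018 centred on GC deciles and -0.16 without TOMM6. Of the members, 5 were at least 1.5-fold lower (23.0% of all symbols), and 5 of the 27 left at an FPKM of at least 10 (26.5%). The count was 2 (MTX2 and GRPEL2) under both scalings to protein-coding symbols (13.6% centred, 13.8% with the same sum). It was 1 (MTX2) centred on GC deciles (7.77%) and 1 (MTX2) at 2-fold (8.54%). Under each of the 3 centrings or scalings 1 member, TOMM20L, was at least 1.5-fold higher, against 0 as reported (5.27%, 5.15% and 5.98% of all symbols); this rests on 1 of its rows, as the rows summed gave a ratio of 0.17. The other import genes past the threshold, 5 of 24 as reported (23.0% of all symbols), were 4 (13.6%, without DNAJC19) centred on the protein-coding median, 5 (13.8%) with the same sum over protein-coding symbols, 3 of the 17 left at an FPKM of at least 10 (26.5% of all symbols), 2 at 2-fold (8.54%) and 2 centred on GC deciles (7.77%); with rows summed they were 4 (22.5%), as IMMP2L turned to 0.17. GRPEL1 was not past 1.5-fold with a pseudocount of 1, which left 4 (18.3% of all symbols). MTX2 stayed between -1.58 and -1.16 under every setting listed here other than the sum over all loci. Without fragments per gene, the precision of low values such as TOMM20L cannot be stated.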
